A study of Homo sapiens with 54 samples.

Results

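The genes described here are 44 genes that androgens are known to raise in prostate cells, a set that leaves out the widely used reporters of androgen action. They were chosen by name, with earlier results of these data known. The deposited table gave 31 through its gene symbols and 13 through its Entrez IDs, and all 44 were found among its 19225 rows. By role they were 7 metabolic enzymes, 3 membrane transporters, 8 proteins of glycosylation, secretion and vesicle traffic, 8 receptors, kinases, phosphatases and a cyclase, 7 scaffolds, keratins and cytoskeletal proteins, 6 regulators of transcription and chromatin, and 5 of other roles. RNA was sequenced from 3 established human prostate cancer lines: LNCaP, from a lymph node metastasis; C4-2, a line derived from LNCaP; and 22Rv1, from a xenograft that had relapsed after castration. Each line received for 12 h ethanol vehicle, 17-beta-estradiol (E2) at 100 nM, the antiandrogen enzalutamide (Enza) at 1 µM, OSU-ERb-12 (OSU, an agonist selective for estrogen receptor beta) at 100 nM, E2 with Enza, or OSU with Enza. There were 3 libraries in each of the 18 groups, biological triplicates per the labels, and every group shared the wild-type genotype tag and a growth medium with fetal bovine serum. Whether the serum had been stripped of steroids is not given in the sources used here, and no group that received an androgen was analysed here.

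Androgens are steroid hormones that switch on transcription of their target genes through DNA elements often far from the gene's start, and enzalutamide blocks this response. In luminal prostate cells the androgen-induced genes serve secretion, lipid and glucose metabolism, protein glycosylation and growth control. C4-2 shares its origin with LNCaP, so the lines are not independent models.

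The libraries held 32819568 to 52417050 reads in genes, so that 1 read was worth 0.0204 to 0.0323 CPM (counts per 1000000 reads of the authors' effective library size). The 5 luminal prostate markers used, KRT8, KRT18 and KLK3 among them, each reached 1 CPM in each line, and their summed level ran from 931 CPM in a 22Rv1 library to 3904 CPM in a C4-2 library. Of the basal markers measured, 1 reached 1 CPM in LNCaP and none in the other lines, where their sum was at most 0.318 CPM. C4-2 vehicle library 1 carries the cell line tag of 22Rv1 but correlated at 0.998 with the C4-2 libraries and 0.899 with 22Rv1, and is kept as C4-2. That library, C4-2 E2 library 3, 22Rv1 vehicle library 3 and 22Rv1 OSU+Enza library 2 stood apart from their groups in correlation, mitochondrial ribosomal RNA or small RNA, and counts are also given without these 4. In 14 members the gene overlaps another gene of the table, and whether reads were assigned by strand is not stated, so some reads of those members could belong to the neighbour. They are ALDH1A3, GNMT, PLPP1, ANKH, B4GALT1, INPP4B, LIFR, PTPN21, HOMER2, IQGAP2, KRT8, ELL2, HERC3 and MPHOSPH9. KRT8 and AZGP1 have pseudogene copies in the table that could share reads.

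E2 raised most of the members in all 3 lines, over the widest range in LNCaP. AKAP12, a scaffold that anchors protein kinase A at the cell edge, changed most in each line. Levels are in CPM, and a difference is a log2 fold change ± SE from limma on log2(CPM + 0.5), where 1 stands for a 2-fold difference and a call is an adjusted p under 0.05 over all genes tested. In LNCaP 41 of 44 members rose and 1 fell, with a median of 0.70, against 13.3% higher and 11.6% lower among all 14251 genes tested, whose median was -0.01. In C4-2 31 of 43 rose and none fell, with a median of 0.33, against 2.72% higher and 3.11% lower among 14027 genes (median -0.03); HPGD was below the filter there. In 22Rv1 27 of 44 rose and none fell, with a median of 0.26, against 17.1% higher and 10.6% lower among 14866 genes (median 0.03). Without the 4 libraries that stood apart, 29 members rose in C4-2 and 27 in 22Rv1. Scaling by total reads moved the split of all genes called in LNCaP from 1894 higher and 1657 lower to 1148 and 2657. In 22Rv1 the split of all genes moved from 2540 and 1578 to 1007 and 2131. The members went from 41 higher and 1 lower to 40 and 1 in LNCaP, and from 27 and 0 to 23 and 0 in 22Rv1. In C4-2 cyclic loess moved all genes from 381 higher and 436 lower to 525 and 342. A set of 22 members rose with E2 in all 3 lines, among them AKAP12, STK39, ELL2, C1orf116, HERC3, LIFR, CAMKK2 and KRT8, against 1.35% of the 12970 genes tested in all 3 lines.

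Enza lowered most members in LNCaP and C4-2 and few in 22Rv1. In LNCaP 35 of 44 fell and 2 rose (KRT8 and MAP7), with a median of -0.37, against 10.6% lower and 9.79% higher among all genes. In C4-2 31 of 43 fell and none rose, with a median of -0.29, against 5.71% lower and 2.73% higher among all genes. In 22Rv1 4 of 44 fell, INPP4B, ZMIZ1, ZBTB10 and ELL2, with a median of -0.03, against 0.491% lower and 0.168% higher; 16 members had an unadjusted p under 0.05, against 14.8% of all genes. Those 4 were the members that fell in every line, as did 0.231% of all genes tested in the 3 lines. Without the 4 libraries that stood apart, 27 members fell in C4-2 and 1 in 22Rv1. In 22Rv1 the count was 1 without vehicle library 2 or vehicle library 3, 2 without Enza library 1, and 7 with total read scaling, cyclic loess or 1 fit of all 54 libraries. In C4-2 total read scaling moved the split of all genes from 383 higher and 801 lower to 742 and 496, with 2 members higher and 28 lower. The members called in no line were APPBP2, LIFR, PTPN21, KRT19 and EAF2. The E2 and the Enza comparisons of a line use the same vehicle libraries.

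**Figure D1:**
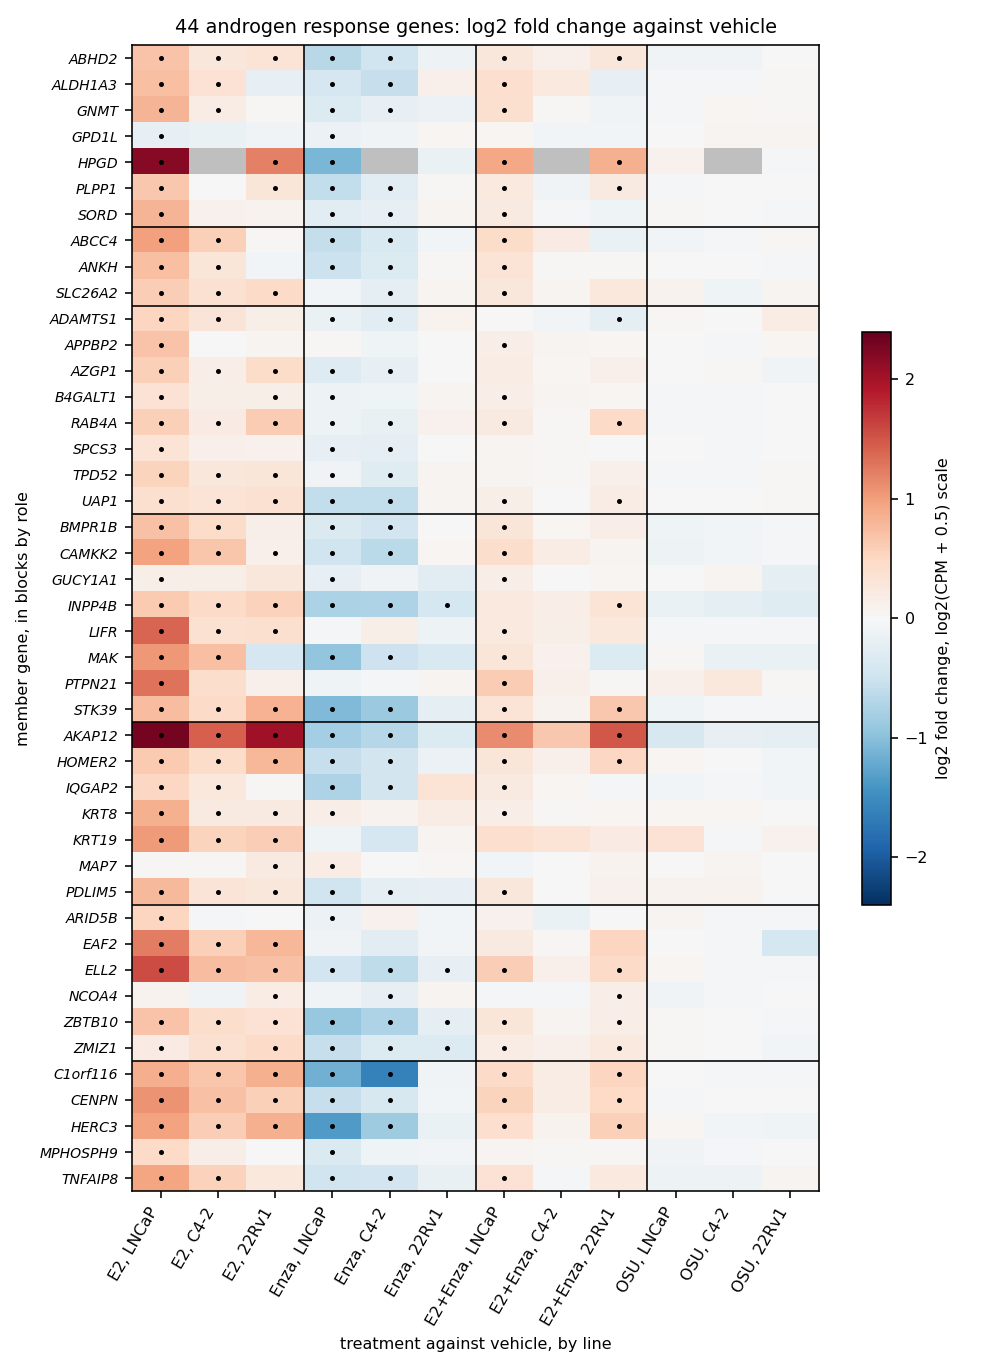
Log2 fold changes of the 44 members (rows, in blocks by role) with E2, Enza, E2+Enza and OSU, each against vehicle, in each line (columns). A dot marks an adjusted p under 0.05 and grey marks HPGD in C4-2, which was not tested. The E2 columns are positive for most members, with AKAP12 between 1.44 and 2.30, the Enza columns are negative for all but 3 members in LNCaP and all but 4 of those tested in C4-2, and the OSU columns hold no dot.

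For comparison with better known targets, E2 changed FKBP5, a chaperone of steroid receptors that androgen induces, by 2.56, 1.42 and 2.22 in LNCaP, C4-2 and 22Rv1, and KLK3, the gene of prostate-specific antigen, by 0.50, 0.27 and 1.01. Enza changed FKBP5 by -0.60, -0.53 and -0.28 and KLK3 by -1.17, -0.52 and -0.62. Both genes belong to a list of 46 other androgen response genes. That list had 38, 18 and 32 genes higher with E2 in LNCaP, C4-2 and 22Rv1 (45 tested in 22Rv1), 1 lower, in 22Rv1, and 19, 23 and 4 lower with Enza, with 1 higher, in LNCaP.

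Promoter windows are shown for AKAP12, HERC3, C1orf116 and STK39, which were among the largest changes in each line in at least 1 comparison. ELL2, the other of 5 members that met this rule, had no annotated promoter window. Each window holds 250 bases before and 50 bases from an annotated start in RefSeq GRCh38.p14, in which 36 of 44 members had an entry (63 of 35116 windows). Capitals mark AGAACA or its reverse complement TGTTCT, the hexamer that forms 1 arm of the androgen response element, searched on both strands.
AKAP12 (chr6:151239717-151240016, plus strand): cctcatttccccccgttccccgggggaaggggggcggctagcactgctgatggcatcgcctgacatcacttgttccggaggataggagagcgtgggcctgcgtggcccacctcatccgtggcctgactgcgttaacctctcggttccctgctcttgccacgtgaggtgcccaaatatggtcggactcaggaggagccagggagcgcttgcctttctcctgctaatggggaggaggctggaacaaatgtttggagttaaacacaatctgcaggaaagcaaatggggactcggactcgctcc
HERC3 (chr4:88523593-88523892, plus strand): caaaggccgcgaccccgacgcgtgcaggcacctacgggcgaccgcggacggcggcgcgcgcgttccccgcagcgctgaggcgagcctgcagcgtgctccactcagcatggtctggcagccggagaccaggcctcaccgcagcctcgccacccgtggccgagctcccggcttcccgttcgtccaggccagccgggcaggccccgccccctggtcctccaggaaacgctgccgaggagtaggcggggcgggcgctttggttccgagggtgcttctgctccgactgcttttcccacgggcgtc
C1orf116 (chr1:207032707-207033006, minus strand): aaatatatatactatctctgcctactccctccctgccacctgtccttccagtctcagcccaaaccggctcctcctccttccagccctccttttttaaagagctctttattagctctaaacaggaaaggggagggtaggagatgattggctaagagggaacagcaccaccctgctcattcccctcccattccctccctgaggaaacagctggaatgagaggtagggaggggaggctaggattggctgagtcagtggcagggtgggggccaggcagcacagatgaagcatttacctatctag
STK39 (chr2:168247546-168247845, minus strand): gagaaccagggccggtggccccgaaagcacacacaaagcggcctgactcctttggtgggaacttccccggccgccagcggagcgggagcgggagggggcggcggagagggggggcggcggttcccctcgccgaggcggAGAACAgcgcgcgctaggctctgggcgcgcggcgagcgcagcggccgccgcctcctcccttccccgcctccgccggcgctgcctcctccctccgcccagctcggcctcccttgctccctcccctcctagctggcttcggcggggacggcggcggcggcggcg
The hexamer was found in STK39, with its first base 112 bases before the start, and in no window of the other 3 genes shown. It also occurred in a window of LIFR and of IQGAP2, each at an annotated start inside the gene, which are shown with 12 bases on either side.
LIFR (chr5:38557458-38557487, minus strand): attgtgccgaagAGAACAccatcaaacgcg
IQGAP2 (chr5:76547342-76547371, plus strand): gcattctcttggTGTTCTggaatgtccatt
The member windows with the hexamer were 3 of 63, against 14.8% of all 35116 windows. The full palindrome, AGAACA and TGTTCT spaced by any 3 bases, which contains the hexamer, was in 1 of the 35116 windows and in no member window, and the estrogen response element, GGTCA and TGACC spaced by any 3 bases, was in 0.057% of all windows and in no member window. These matches describe letters in short windows next to the start and say nothing of binding elsewhere.

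Among the 7 metabolic enzymes, 6 rose and 1 fell with E2 in LNCaP, 3 of 6 tested rose in C4-2 and 3 rose in 22Rv1. HPGD (chr4:174490175-174522893), the dehydrogenase that inactivates prostaglandins, moved most. In LNCaP its level was 3.38, 2.50 and 3.08 CPM with vehicle, 15.6, 16.1 and 14.4 CPM with E2 and 0.941, 1.21 and 1.20 CPM with Enza. The 3 groups did not overlap: E2 changed it by 2.19 ± 0.12, adjusted p = 5.59e-14, and Enza by -1.10 ± 0.12, adjusted p = 1.14e-07, or -0.68 with 2 CPM added in place of 0.5. In 22Rv1 it stood at 43.3, 43.2 and 45.2 CPM with vehicle and 102, 104 and 99.7 CPM with E2, a change of 1.21 ± 0.055, adjusted p = 3.82e-16. With Enza the 22Rv1 libraries lay at 39.9, 41.0 and 37.3 CPM, below every vehicle library, at -0.15 ± 0.055 with an adjusted p of 0.203. In C4-2 the gene was close to silent, between 0 and 0.633 CPM over 18 libraries, and no treatment was tested within that line.

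The other enzymes changed less. ABHD2, a lipid hydrolase, rose with E2 by 0.68 ± 0.032 in LNCaP, 0.27 ± 0.041 in C4-2 and 0.33 ± 0.046 in 22Rv1. It fell with Enza by 0.66 ± 0.032 in LNCaP and by 0.49 ± 0.041 in C4-2. ALDH1A3, which makes retinoic acid from retinaldehyde, was at 36.7, 35.6 and 37.1 CPM with vehicle and 59.3, 60.9 and 60.9 CPM with E2 in LNCaP, without overlap (0.72 ± 0.049, adjusted p = 3.31e-12). In 22Rv1, where it lay under 3.4 CPM, its vehicle libraries read 3.08, 2.93 and 2.67 CPM and its E2 libraries 2.27, 2.43 and 2.66 CPM, a difference of -0.20 ± 0.12, adjusted p = 0.206. SORD, sorbitol dehydrogenase of the polyol pathway, rose in LNCaP from 472, 451 and 476 CPM to 836, 808 and 807 CPM, by 0.81 ± 0.041. It was not called with E2 in C4-2 (0.10 ± 0.050, adjusted p = 0.237) or 22Rv1 (0.08 ± 0.054, adjusted p = 0.306). PLPP1, a phosphatase of bioactive lipid phosphates, rose in LNCaP (0.64 ± 0.040) and 22Rv1 (0.30 ± 0.047), and GNMT, which methylates glycine, rose in LNCaP (0.82 ± 0.067) and C4-2 (0.18 ± 0.053). GPD1L, related to glycerol-3-phosphate dehydrogenase, was the member that fell with E2: 37.5, 35.2 and 33.0 CPM with vehicle and 31.9, 28.9 and 31.0 CPM with E2 in LNCaP, at -0.20 ± 0.050, adjusted p = 0.00326. Enza lowered all 7 enzymes in LNCaP and 5 of 6 in C4-2, and none was called in 22Rv1.

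All 3 transporters rose with E2 in LNCaP and C4-2, and SLC26A2 alone was called in 22Rv1. ABCC4, an efflux pump for cyclic nucleotides and drugs, stood at 138, 130.0 and 133 CPM with vehicle, 261, 267 and 263 CPM with E2 and 93.2, 86.9 and 90.0 CPM with Enza in LNCaP. E2 raised it by 0.98 ± 0.039 there and by 0.58 ± 0.038 in C4-2, where its libraries went from 173, 165 and 174 to 256, 255 and 252 CPM. In 22Rv1 the vehicle libraries (15.7, 14.7 and 15.5 CPM) and the E2 libraries (14.4, 15.2 and 17.1 CPM) overlapped, with a difference of 0.02 ± 0.082 and a 95% interval of -0.15 to 0.19. ANKH, which exports pyrophosphate and ATP, rose by 0.72 ± 0.038 in LNCaP and 0.29 ± 0.041 in C4-2 and stood at -0.06 ± 0.053, adjusted p = 0.438 in 22Rv1. SLC26A2, the sulfate transporter, rose by 0.59 ± 0.053, 0.36 ± 0.064 and 0.45 ± 0.087 in the 3 lines. Enza lowered ABCC4 and ANKH in LNCaP and all 3 transporters in C4-2, at -0.57 and -0.51, and -0.36, -0.33 and -0.23.

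Of the 8 genes of glycosylation, secretion and vesicle traffic, E2 raised 8 in LNCaP, 5 in C4-2 and 5 in 22Rv1. UAP1, which makes the sugar donor UDP-N-acetylglucosamine, stood at 336, 340.2 and 343 CPM with vehicle, 443, 456 and 433 CPM with E2 and 229, 219 and 231 CPM with Enza in LNCaP. Its libraries did not overlap between these groups, with 0.39 ± 0.029 for E2 and -0.58 ± 0.029 for Enza, and E2 raised it by 0.33 ± 0.048 in C4-2 and 0.36 ± 0.050 in 22Rv1. RAB4A, a GTPase of endosome recycling, changed by 0.56 ± 0.041, 0.20 ± 0.057 and 0.61 ± 0.046 in LNCaP, C4-2 and 22Rv1, and had the largest change of this group in 22Rv1. TPD52, a vesicle traffic protein, and AZGP1, a secreted lipid-mobilising glycoprotein, rose in all 3 lines, TPD52 by 0.28 to 0.53 and AZGP1 by 0.16 to 0.58. ADAMTS1, a secreted metalloprotease, rose in LNCaP (0.52 ± 0.042) and C4-2 (0.32 ± 0.039) and read 12.8, 14.8 and 15.1 CPM with vehicle and 16.0, 16.4 and 14.8 CPM with E2 in 22Rv1 (0.15 ± 0.073, adjusted p = 0.137). B4GALT1, a Golgi galactosyltransferase, rose in LNCaP (0.34 ± 0.032) and 22Rv1 (0.14 ± 0.052). SPCS3, a signal peptidase subunit, and APPBP2, which binds the amyloid precursor protein, rose in LNCaP (0.33 ± 0.034 and 0.68 ± 0.041) and were not called in the other lines. Enza lowered 7 of the 8 in LNCaP, 6 in C4-2 and none in 22Rv1.

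All 8 receptors, kinases, phosphatases and the cyclase rose with E2 in LNCaP, 6 rose in C4-2 and 4 in 22Rv1. LIFR, the receptor of leukemia inhibitory factor, read 48.3, 43.5 and 42.7 CPM with vehicle and 119.7, 121 and 118 CPM with E2 in LNCaP (1.40 ± 0.050, adjusted p = 3.69e-18). Its Enza libraries, at 47.0, 43.6 and 41.6 CPM, overlapped the vehicle range (-0.03 ± 0.050). E2 raised LIFR by 0.36 ± 0.045 in C4-2 and by 0.38 ± 0.099 in 22Rv1. PTPN21, a cytoskeleton-bound tyrosine phosphatase, followed in LNCaP, with 13.0, 11.4 and 10.8 CPM under vehicle and 32.4, 28.3 and 28.3 CPM under E2 (1.30 ± 0.085). In C4-2 its vehicle libraries read 2.62, 2.48 and 2.50 CPM and its E2 libraries 3.06, 3.65 and 4.03 CPM, apart from each other but not called (0.42 ± 0.13, adjusted p = 0.0553). In 22Rv1 the groups overlapped (0.12 ± 0.12).

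CAMKK2, the calcium-dependent kinase upstream of AMPK, stood in LNCaP at 124, 124 and 137 CPM with vehicle, 242, 248 and 264 CPM with E2 and 94.3, 85.8 and 96.8 CPM with Enza. In C4-2 the same groups read 187, 170.4 and 172, 289, 280.5 and 273 and 114, 112 and 112 CPM. The groups were separate in both lines, with E2 at 0.97 ± 0.044 and 0.67 ± 0.043, while in 22Rv1 E2 gave 0.12 ± 0.044, adjusted p = 0.0381 and Enza 0.06 ± 0.044, adjusted p = 0.565. STK39, a kinase that activates cation-chloride cotransporters, read 174, 160.4 and 178 CPM with vehicle, 276, 296 and 288 CPM with E2 and 83.3, 79.5 and 82.9 CPM with Enza in LNCaP. Its C4-2 libraries read 240.0, 229 and 227, 332, 322 and 306 and 124, 125 and 124 CPM in the same order. In 22Rv1 they read 30.5, 30.2 and 32.9 CPM with vehicle, 57.2, 56.0 and 55.0 CPM with E2 and 27.5, 27.9 and 24.0 CPM with Enza. E2 thus raised STK39 in each line (0.75 ± 0.038, 0.46 ± 0.042 and 0.83 ± 0.063), and Enza lowered it in LNCaP (-1.05 ± 0.038) and C4-2 (-0.89 ± 0.042) and was not called in 22Rv1 (-0.24 ± 0.063, adjusted p = 0.0849).

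MAK, a kinase named for male germ cells, was at 7.97, 7.74 and 7.48 CPM with vehicle, 16.5, 15.9 and 16.8 CPM with E2 and 4.01, 3.68 and 3.55 CPM with Enza in LNCaP, 3 separate ranges (1.04 ± 0.081 with E2 and -0.96 ± 0.081 with Enza). In C4-2 it rose with E2 from 5.70, 4.79 and 5.67 to 8.84, 9.05 and 9.76 CPM (0.73 ± 0.13, adjusted p = 3.83e-04). In 22Rv1 its E2 libraries, 1.27, 1.43 and 1.15 CPM, lay below the vehicle libraries, 2.14, 1.52 and 1.95 CPM, and the difference was not called (-0.40 ± 0.18, adjusted p = 0.0901). INPP4B, a phosphoinositide phosphatase, fell with Enza in each line: from 12.2, 11.1 and 12.3 to 6.52, 7.23 and 6.55 CPM in LNCaP (-0.77 ± 0.075). In C4-2 it fell from 5.14, 5.58 and 5.13 to 2.87, 2.61 and 3.39 CPM (-0.75 ± 0.11), and in 22Rv1 from 10.2, 10.3 and 10.1 to 8.08, 8.07 and 6.34 CPM (-0.43 ± 0.099, adjusted p = 0.0323). No vehicle library overlapped an Enza library of its line, but the 22Rv1 call was lost under 6 of the alternatives. BMPR1B, a receptor of bone morphogenetic proteins, rose with E2 in LNCaP (0.71 ± 0.042) and C4-2 (0.44 ± 0.052). GUCY1A1, a subunit of the nitric oxide-sensitive guanylate cyclase, rose in LNCaP by 0.15 ± 0.034 and was not called in C4-2 (0.13 ± 0.044) or 22Rv1 (0.26 ± 0.12).

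E2 raised 6 of the 7 scaffolds, keratins and cytoskeletal proteins in each line. AKAP12 (chr6:151239967-151358559) read 5.59, 4.43 and 10.9 CPM with vehicle and 32.7, 32.8 and 36.6 CPM with E2 in LNCaP. Vehicle library 3 was the highest of its group, and without it the E2 change of 2.30 ± 0.19 became 2.65. In C4-2 AKAP12 went from 2.24, 1.72 and 2.58 to 7.41, 6.14 and 6.53 CPM (1.44 ± 0.15, adjusted p = 3.52e-07). In 22Rv1 it went from 10.6, 13.1 and 13.2 to 52.1, 47.3 and 56.0 CPM (2.03 ± 0.088, adjusted p = 1.54e-16). The E2 libraries lay above all vehicle libraries in each line. Enza lowered AKAP12 in LNCaP (-0.82 ± 0.19, adjusted p = 0.00309) and C4-2 (-0.69 ± 0.15, adjusted p = 0.00481), with libraries of 4.25, 2.28 and 4.26 CPM and 1.38, 1.01 and 1.06 CPM. The LNCaP fall is measured against vehicle libraries that include the high library 3, and its size without that library is not given here.

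KRT8, a keratin of luminal epithelium, rose with E2 in LNCaP from 172, 176 and 183 to 334, 316 and 310.5 CPM (0.85 ± 0.040) and by 0.21 ± 0.035 in C4-2 and 0.21 ± 0.064 in 22Rv1. It also rose with Enza in LNCaP, to 196, 183 and 212 CPM, overlapping the vehicle range at its lowest library (0.15 ± 0.040, adjusted p = 0.00707). KRT19, another simple-epithelium keratin, rose with E2 in all 3 lines, by 1.02 ± 0.16, 0.53 ± 0.13 and 0.58 ± 0.14, from means under 4 CPM. HOMER2, a postsynaptic-type scaffold, rose by 0.62 ± 0.039, 0.44 ± 0.040 and 0.80 ± 0.055, and PDLIM5, an actin-linked adaptor, by 0.77 ± 0.051, 0.32 ± 0.045 and 0.26 ± 0.057. IQGAP2, a Ras GTPase-activating-like scaffold, rose in LNCaP (0.49 ± 0.046) and C4-2 (0.26 ± 0.046), fell with Enza in both (-0.74 ± 0.046 and -0.45 ± 0.046), and was between 1.9 and 3.4 CPM in the 22Rv1 vehicle, E2 and Enza libraries. MAP7, a microtubule-stabilising protein, was not called with E2 in LNCaP (0.02 ± 0.038, adjusted p = 0.700) or C4-2 (0.03 ± 0.044, adjusted p = 0.729) and rose in 22Rv1 (0.21 ± 0.047). Enza raised it in LNCaP, from 84.4, 86.5 and 81.4 to 93.4, 97.5 and 95.6 CPM (0.18 ± 0.038, adjusted p = 9.06e-04), without overlap.

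Of the 6 regulators of transcription and chromatin, 5 rose with E2 in LNCaP, 4 in C4-2 and 5 in 22Rv1. ELL2, an elongation factor of RNA polymerase II, stood at 65.6, 63.0 and 62.2 CPM with vehicle, 188, 192 and 185 CPM with E2 and 46.3, 45.3 and 46.9 CPM with Enza in LNCaP. In C4-2 it stood at 104, 103 and 97.5, 175, 173 and 164 and 67.0, 67.1 and 65.7 CPM. In 22Rv1 it stood at 226, 239 and 239.8, 394, 381 and 376 and 206, 210.1 and 195 CPM. The 3 ranges were separate in every line: E2 raised it by 1.56 ± 0.042, 0.74 ± 0.046 and 0.71 ± 0.044, and Enza changed it by -0.46 ± 0.042, -0.61 ± 0.046 and -0.21 ± 0.044. EAF2, a partner of the ELL factors, rose with E2 from 2.71, 2.80 and 2.35 to 6.82, 7.48 and 6.16 CPM in LNCaP (1.23 ± 0.12). It was not called with Enza there (-0.08 ± 0.12, adjusted p = 0.659), and it stayed under 2 CPM in 22Rv1, where E2 gave 0.81 ± 0.20, adjusted p = 0.00403. ZBTB10, a zinc finger repressor, rose by 0.68 ± 0.038, 0.41 ± 0.042 and 0.35 ± 0.050.

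ZMIZ1, a transcriptional coactivator of the PIAS type, read 162, 149 and 147 CPM with vehicle and 104, 109 and 96.5 CPM with Enza in LNCaP. In C4-2 the same groups read 146, 149 and 140.5 and 117, 113 and 114 CPM, and in 22Rv1 56.1, 56.6 and 52.6 and 41.5, 44.7 and 45.7 CPM. No libraries overlapped between these groups; Enza changed ZMIZ1 by -0.56 ± 0.039 in LNCaP, -0.34 ± 0.054 in C4-2 and -0.32 ± 0.048 in 22Rv1, where its call held under each alternative run. ARID5B, a histone demethylase cofactor, rose with E2 in LNCaP (0.52 ± 0.045) and stood at -0.04 ± 0.048 in C4-2 and 0.01 ± 0.056 in 22Rv1. NCOA4, known as a nuclear receptor coactivator and as the receptor for ferritin autophagy, was called with E2 in 22Rv1 (0.18 ± 0.047) and not in LNCaP (0.08 ± 0.033, adjusted p = 0.0925) or C4-2 (-0.08 ± 0.044, adjusted p = 0.320).

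In the 5 genes of other roles, E2 raised 5 in LNCaP, 4 in C4-2 and 3 in 22Rv1. C1orf116, an androgen-regulated epithelial gene, read 229, 219 and 219 CPM with vehicle, 411, 405 and 409 CPM with E2 and 100.5, 100.1 and 98.8 CPM with Enza in LNCaP. In C4-2 it read 165, 150.0 and 158, 251, 251 and 248 and 47.2, 52.6 and 53.2 CPM, and the Enza change of -1.62 ± 0.046, adjusted p = 8.99e-19 was the largest fall of any member. In 22Rv1 it read 173, 177 and 179.8 CPM with vehicle, 326, 318 and 312 CPM with E2 and 174, 173 and 152 CPM with Enza. E2 raised it there (0.85 ± 0.048), and the Enza libraries overlapped vehicle (-0.09 ± 0.048, adjusted p = 0.391). HERC3, a ubiquitin ligase, fell most with Enza in LNCaP, from 126, 111 and 105 to 45.0, 43.0 and 44.5 CPM (-1.35 ± 0.050, adjusted p = 8.40e-18). In C4-2 it fell from 43.0, 42.5 and 42.6 to 23.3, 22.6 and 24.5 CPM (-0.85 ± 0.055). In 22Rv1 its libraries read 25.4, 24.1 and 25.1 CPM with vehicle, 45.2, 46.2 and 45.0 CPM with E2 and 23.1, 20.3 and 23.2 CPM with Enza, a rise with E2 (0.86 ± 0.072) and no call with Enza (-0.17 ± 0.072, adjusted p = 0.286). CENPN, a centromere protein, rose with E2 by 1.07 ± 0.034, 0.70 ± 0.047 and 0.58 ± 0.049. TNFAIP8, a regulator of cell death, rose in LNCaP (0.95 ± 0.062) and C4-2 (0.55 ± 0.079), and MPHOSPH9, a mitotic phosphoprotein, rose in LNCaP (0.46 ± 0.038).

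**Figure D2:**
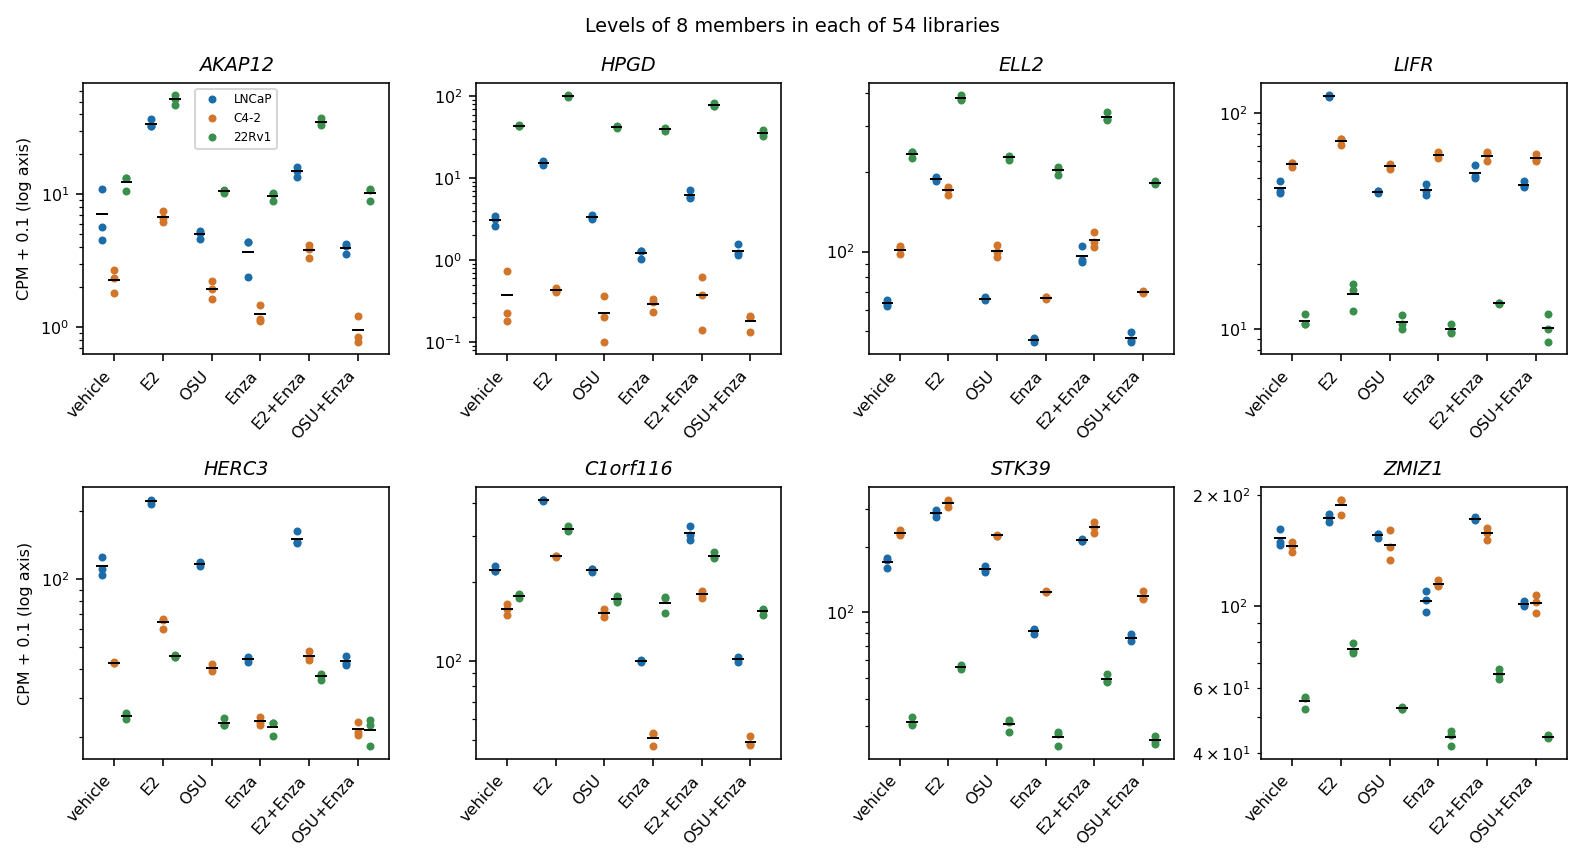
Level in CPM on a log axis (0.1 CPM added) of 8 members in each library of the 18 groups; points are libraries and bars are means. HPGD is near the floor in C4-2 and at 33.0 CPM or more in 22Rv1, AKAP12 is highest with E2 in each line, and C1orf116, HERC3 and STK39 have their lowest means within LNCaP and within C4-2 in the Enza and OSU+Enza groups.

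Given on top of Enza, E2 still raised most members in LNCaP and C4-2. Against Enza alone, 40 members rose and 1 fell in LNCaP (MAP7), 33 rose and 1 fell in C4-2 (ARID5B), and 16 rose and 1 fell in 22Rv1 (ADAMTS1). The background was 12.2%, 4.43% and 4.11% higher and 10.9%, 2.94% and 3.83% lower among all genes, and the members' medians were 0.73, 0.33 and 0.13. In all 3 lines 14 members rose, among them AKAP12, STK39, HERC3, C1orf116, ELL2, ZBTB10, ZMIZ1 and INPP4B, against 1.13% of genes tested in all 3. HPGD rose in LNCaP from 0.941, 1.21 and 1.20 CPM with Enza to 7.01, 5.58 and 5.86 CPM with both (2.04 ± 0.12), and in 22Rv1 from 39.9, 41.0 and 37.3 to 77.2, 77.2 and 83.9 CPM (1.00 ± 0.055). C1orf116 rose in C4-2 from 47.2, 52.6 and 53.2 to 184, 174 and 179.8 CPM (1.81 ± 0.046), the largest rise of that line. AKAP12 with both agents read 15.9, 13.5 and 15.0 CPM in LNCaP, 3.22, 4.07 and 3.77 CPM in C4-2 and 37.6, 34.9 and 33.0 CPM in 22Rv1, at 1.94 ± 0.19, 1.35 ± 0.15 and 1.81 ± 0.088 over Enza. In C4-2 its change was 0.85 with 2 CPM added in place of 0.5. KRT8 and EAF2 were called in no line.

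Read from the other side, adding Enza to E2 lowered 40 members and raised 1 (GPD1L, by 0.24 ± 0.050) in LNCaP, lowered 25 in C4-2 and 8 in 22Rv1, and raised none in those lines. Among all genes 7.26%, 2.03% and 1.06% were lower and 6.27%, 1.43% and 0.135% higher. The largest falls were HPGD (-1.26 ± 0.12), AKAP12 (-1.17 ± 0.19) and LIFR (-1.17 ± 0.050) in LNCaP, AKAP12 (-0.78 ± 0.15), ELL2 (-0.63 ± 0.046) and MAK (-0.62 ± 0.13) in C4-2, and AKAP12 (-0.55 ± 0.088), ADAMTS1 (-0.36 ± 0.073) and HPGD (-0.36 ± 0.055) in 22Rv1. LIFR fell in LNCaP from the E2 libraries above to 57.2, 50.8 and 50.0 CPM with both agents. The members ADAMTS1, AKAP12, HOMER2, ELL2, C1orf116 and HERC3 fell in all 3 lines, against 0.47% of genes. Compared with vehicle, the combination left 32 members higher in LNCaP and 16 higher and 1 lower (ADAMTS1) in 22Rv1, against 4.52% higher and 2.91% lower among all genes in LNCaP and 8.1% higher and 5.72% lower in 22Rv1. In C4-2 none of 43 was called (0.0428% higher and 0.0356% lower among all genes), with 14 at an unadjusted p under 0.05 (against 8.73% of all genes) and 1 to 5 called under 6 of the alternatives. AKAP12 stayed highest over vehicle, by 1.13 ± 0.19 in LNCaP and 1.48 ± 0.088 in 22Rv1, followed by HPGD at 0.93 ± 0.12 and 0.85 ± 0.055. ADAMTS1 in 22Rv1 read 12.5, 11.9 and 12.0 CPM with both agents, below every vehicle library (-0.22 ± 0.073, adjusted p = 0.0446).

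The interaction, the E2 change with Enza present minus the E2 change without it, tests whether Enza altered the response to E2. In LNCaP it was called for 26 members, 13 positive and 13 negative, against 4.51% positive and 4.54% negative among all genes. In C4-2 7 were positive and 2 negative, against 1.06% and 0.442%, and in 22Rv1 ADAMTS1 was negative (-0.46 ± 0.10, adjusted p = 0.0365), against 0.135% positive and 0.289% negative. That ADAMTS1 value joins an E2 change of 0.15 ± 0.073, not called, without Enza to a fall of 0.31 ± 0.073 with it. The E2 change also went from 0.02 ± 0.038 to -0.24 ± 0.038 for MAP7 and from -0.20 ± 0.050 to 0.18 ± 0.050 for GPD1L in LNCaP. The 22Rv1 count ran from 0 to 7 when a library was left out. HERC3 had the largest gain in LNCaP: its E2 change was 0.96 ± 0.050 without and 1.76 ± 0.050 with Enza, a difference of 0.80 ± 0.070, adjusted p = 4.89e-09. C1orf116 gained 0.73 ± 0.048 in LNCaP and 1.14 ± 0.066 in C4-2, and STK39 0.64 ± 0.054 and 0.52 ± 0.060. ZMIZ1 rose with E2 by 0.19 ± 0.039 alone and by 0.74 ± 0.039 over Enza in LNCaP, with E2 libraries of 174, 169 and 177 CPM and combination libraries of 171, 172 and 175 CPM, which overlap. For HERC3, C1orf116 and STK39 the Enza libraries lay below vehicle in LNCaP, as given above, and the combination libraries lay below the E2 libraries.

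Other members had a smaller E2 change in the presence of Enza. LIFR rose with E2 by 1.40 ± 0.050 in LNCaP and by 0.26 ± 0.050 over Enza, an interaction of -1.15 ± 0.071, adjusted p = 6.96e-12, and in C4-2 by 0.36 ± 0.045 against -0.01 ± 0.045 (-0.36 ± 0.064, adjusted p = 0.00185). KRT8 in LNCaP read 334, 316 and 310.5 CPM under E2 and 202, 198 and 196 CPM with both agents, inside the range of Enza alone (-0.84 ± 0.057, adjusted p = 2.49e-11), and its C4-2 interaction was -0.25 ± 0.050, adjusted p = 0.00600. EAF2 (-0.93 ± 0.16), PTPN21 (-0.58 ± 0.12), APPBP2 (-0.55 ± 0.058) and ELL2 (-0.51 ± 0.060) followed among the members called in LNCaP. The Enza changes of these genes against vehicle in LNCaP were -0.03 ± 0.050 for LIFR, 0.15 ± 0.040 for KRT8, -0.08 ± 0.12 for EAF2, -0.11 ± 0.085 for PTPN21, 0.04 ± 0.041 for APPBP2 and -0.46 ± 0.042 for ELL2. For HERC3, C1orf116, STK39 and ZMIZ1 they were -1.35 ± 0.050, -1.15 ± 0.034, -1.05 ± 0.038 and -0.56 ± 0.039. Of the 13 members with a negative interaction in LNCaP, 6 were lowered by Enza, as were all 13 with a positive one (35 of 44 members and 10.6% of all genes fell). The interaction shares its vehicle and Enza libraries with these changes and holds the Enza change with its sign reversed. A fall with Enza thus moves it upward by construction, and the values are set side by side and not related by a test. Of the other androgen response list, 7 genes had a positive and 16 a negative interaction in LNCaP, 4 and 3 in C4-2, and 1 and 6 in 22Rv1.

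**Figure D3:**
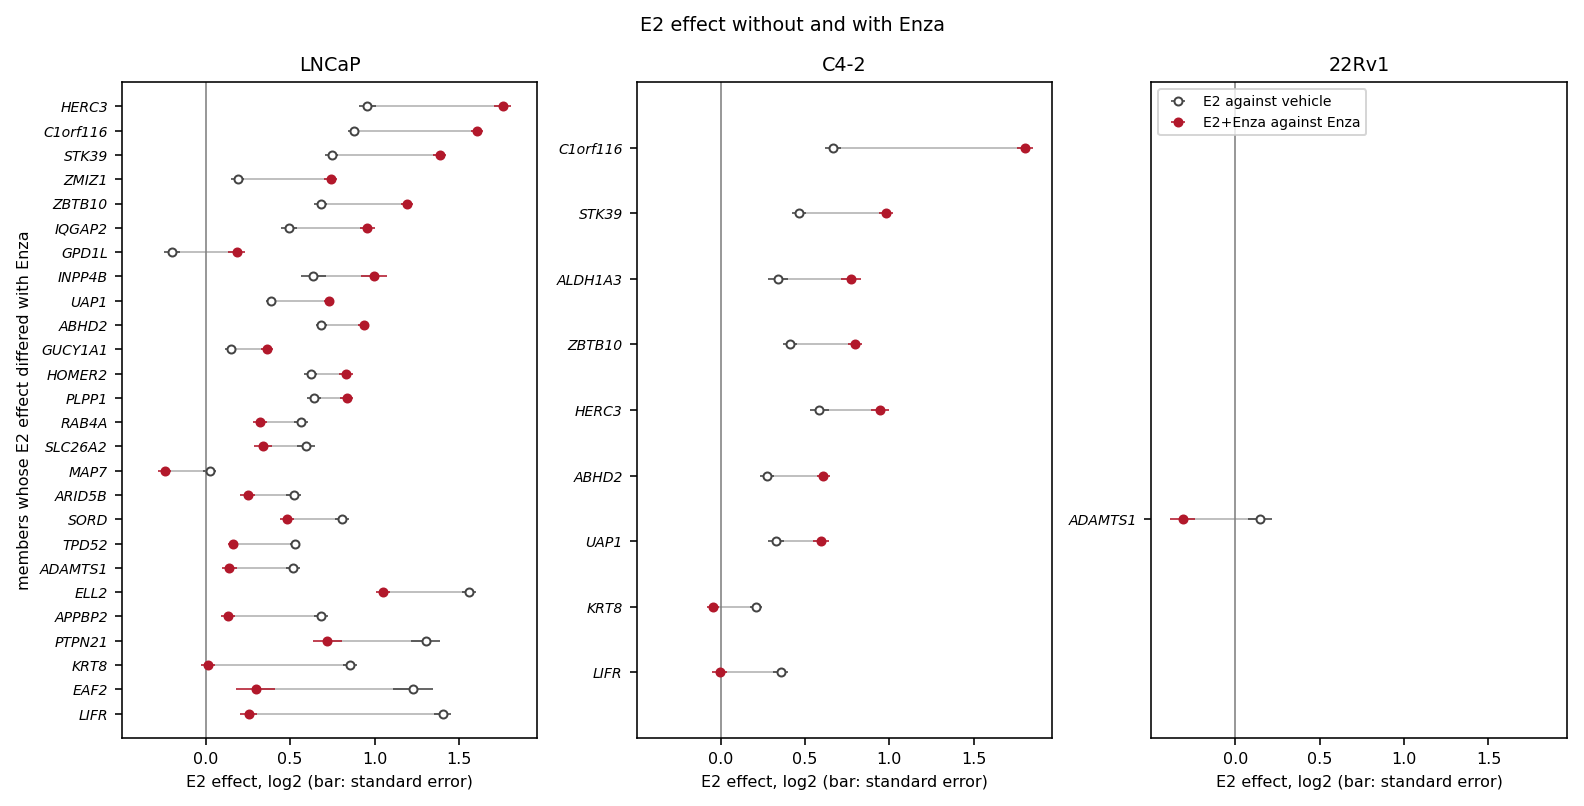
E2 change (log2, bars are standard errors) without Enza (open circles, E2 against vehicle) and with Enza (filled circles, E2+Enza against Enza) for the members whose interaction was called, in each line. In LNCaP HERC3 moves from 0.96 to 1.76 and LIFR from 1.40 to 0.26; in C4-2 C1orf116 moves from 0.67 to 1.81; in 22Rv1 only ADAMTS1 is plotted.

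No member was called with OSU at 100 nM for 12 h in any line. The members with an unadjusted p under 0.05 were 7 of 44 in LNCaP, 0 of 43 in C4-2 and 4 of 44 in 22Rv1, against 6.64%, 2.82% and 2% of all genes. The smallest adjusted p was 0.659, and the share of all genes called was 0.014%, 0% and 0%. The medians of the members were -0.01, -0.03 and 0.00. The 95% interval lay within 0.5 on the log2 scale of no change for 42 members in LNCaP, 41 in C4-2 and 42 in 22Rv1. AKAP12 was the widest in LNCaP, with 5.19, 4.99 and 4.52 CPM under OSU and an interval of -0.77 to 0.02, a comparison that includes the high vehicle library 3. Averaged over the 3 lines, no member was called, 8 had an unadjusted p under 0.05 (against 5.1% of all genes, of which 0% were called), and all 44 intervals lay within 0.5. In that mean 10 of 44 members lay above 0, against 8111 of 16026 genes. By line 19 of 44, 9 of 43 and 19 of 44 did, against 7130 of 14251, 6974 of 14027 and 8048 of 14866 genes. INPP4B had the smallest adjusted p of the mean (-0.22 ± 0.054, adjusted p = 0.289). On top of Enza, no member was called with OSU in any line (smallest adjusted p 0.0602, 0.175 and 0.157), with 8, 6 and 13 at an unadjusted p under 0.05, against 8.37%, 6.92% and 9.3% of all genes. At the adjusted p 0.0982%, 0% and 0.101% of all genes were called, and the count of members called was 1 in LNCaP with the replicate block and 2 in 22Rv1 in the fit of all 54 libraries. Of the 46 other androgen response genes, none was called with OSU alone, and on top of Enza 2 were called, both lower and in LNCaP. KLK3 was the lower of these, at -0.31 ± 0.038, adjusted p = 6.23e-05, and was not called in C4-2 (-0.10 ± 0.046, adjusted p = 0.718) or 22Rv1 (-0.34 ± 0.11, adjusted p = 0.327). FKBP5 was not called with OSU in any line, alone or on top of Enza. The groups were assigned to OSU by the treatment labels, since their titles carry the letters WT, whose meaning is not given.

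At the matched dose of 100 nM and time of 12 h, OSU and E2 differed for most members. OSU libraries were lower than E2 libraries for 42 members in LNCaP, 31 in C4-2 and 27 in 22Rv1, and higher for GPD1L in LNCaP (0.19 ± 0.050) and C4-2 (0.22 ± 0.052). Among all genes 12.8%, 2.94% and 13.2% were lower and 11.8%, 3% and 8.81% higher. AKAP12 differed most, by -2.68 ± 0.19, -1.63 ± 0.15 and -2.25 ± 0.088, with OSU libraries of 1.52, 2.14 and 1.83 CPM in C4-2 and 10.2, 10.5 and 10.6 CPM in 22Rv1. HPGD differed by -2.08 ± 0.12 in LNCaP and -1.26 ± 0.055 in 22Rv1, ELL2 by -1.51 ± 0.042 in LNCaP and -0.77 ± 0.046 in C4-2, MAK by -0.88 ± 0.13 in C4-2 and EAF2 by -1.22 ± 0.20 in 22Rv1. The EAF2 value rests on levels near 1 CPM and was -0.59 with 2 CPM added and -1.97 with voom. In C4-2 the GPD1L call was lost without E2 library 3. MAP7 was the 1 member not called in LNCaP (-0.02 ± 0.038, interval -0.10 to 0.06).

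The lines differed at vehicle level in most members, as in most genes. In C4-2 against LNCaP 21 members were higher and 20 lower (66.7% of all genes called). In 22Rv1 8 were higher and 34 lower than in LNCaP (83.3%), with a median of -1.11, and 10 higher and 31 lower than in C4-2 (84.7%), with a median of -0.80. Total read scaling moved the all-gene median from 0.00 to -0.10 in C4-2 against LNCaP and from -0.02 to 0.22 in 22Rv1 against C4-2, and the members then split into 17 higher and 23 lower, and 13 higher and 28 lower. GUCY1A1 was lowest in 22Rv1 relative to LNCaP (-5.80 ± 0.062), with 215, 203 and 207 CPM in LNCaP, 94.9, 95.0 and 99.2 CPM in C4-2 and 2.74, 3.75 and 3.34 CPM in 22Rv1. IQGAP2 (-4.38 ± 0.072) and ADAMTS1 (-3.67 ± 0.048) came next, and ADAMTS1 differed most between 22Rv1 and C4-2 (-4.81 ± 0.048). HPGD (3.68 ± 0.16), ZBTB10 (2.28 ± 0.039) and ELL2 (1.88 ± 0.043) were the highest members in 22Rv1 against LNCaP. In C4-2 HPGD (-2.22 ± 0.16), PTPN21 (-2.01 ± 0.11) and AKAP12 (-1.40 ± 0.17) were the lowest against LNCaP, and ADAMTS1 (1.14 ± 0.048), PLPP1 (1.14 ± 0.043) and KRT19 (1.04 ± 0.14) the highest. HPGD passed the filter of this fit only through its LNCaP and 22Rv1 libraries. HPGD libraries did not overlap between any pair of lines, at 3.38, 2.50 and 3.08 CPM in LNCaP, 0.633, 0.124 and 0.0773 CPM in C4-2 and 43.3, 43.2 and 45.2 CPM in 22Rv1.

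The response to E2 itself differed between lines for 38 of 44 members by an F test over the 3 lines, against 29.1% of all genes. The exceptions, not called, were GPD1L, SLC26A2, UAP1, GUCY1A1, INPP4B and KRT19. Against LNCaP the E2 change was smaller for 30 members and larger for 0 in C4-2 (8.41% of all genes differed), and smaller for 27 and larger for 3 in 22Rv1 (11.2%). Between 22Rv1 and C4-2 it was larger in 22Rv1 for 10 and smaller for 6 (28.8%). HPGD, below the filter in C4-2 itself, entered the fit of all 54 libraries only through LNCaP and 22Rv1. It is counted among the 30, at -2.03 ± 0.22, beside a LNCaP change of 2.19 ± 0.12. With its C4-2 level below 1 CPM, that value is not read as a C4-2 response. LIFR had the next largest difference between C4-2 and LNCaP (-1.05 ± 0.10, adjusted p = 1.11e-10). MAK (-1.44 ± 0.19, adjusted p = 1.67e-07), PTPN21 (-1.18 ± 0.15, adjusted p = 6.33e-08), ABCC4 (-0.96 ± 0.078, adjusted p = 1.10e-13) and ALDH1A3 (-0.92 ± 0.096, adjusted p = 1.97e-10) had smaller E2 changes in 22Rv1 than in LNCaP. The Enza change differed for 28 of 44, against 13.3%. It was higher in 22Rv1 than in LNCaP, that is less negative or above 0, for 24 members (4.49% of all genes differed). Among them were HERC3 (1.19 ± 0.089), IQGAP2 (1.07 ± 0.10) and STK39 (0.82 ± 0.070). It was higher in 22Rv1 than in C4-2 for 23 members (11.3%), with C1orf116 (1.53 ± 0.061) and CAMKK2 (0.70 ± 0.061) among them. In 22Rv1 the Enza changes of IQGAP2 (0.34) and CAMKK2 (0.06) were above 0 and not called. IQGAP2 lay between 1.90 and 3.34 CPM in that line. Between C4-2 and LNCaP 8 members had a higher and 2 a lower Enza change in C4-2 (4.99%). The 8 include HPGD (1.00 ± 0.22), beside a LNCaP change of -1.10 ± 0.12. It is near 0 CPM in C4-2, so that value is not read as a C4-2 response. Without the 4 libraries that stood apart, 36 members differed in the E2 change and 28 in the Enza change.

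**Figure D4:**
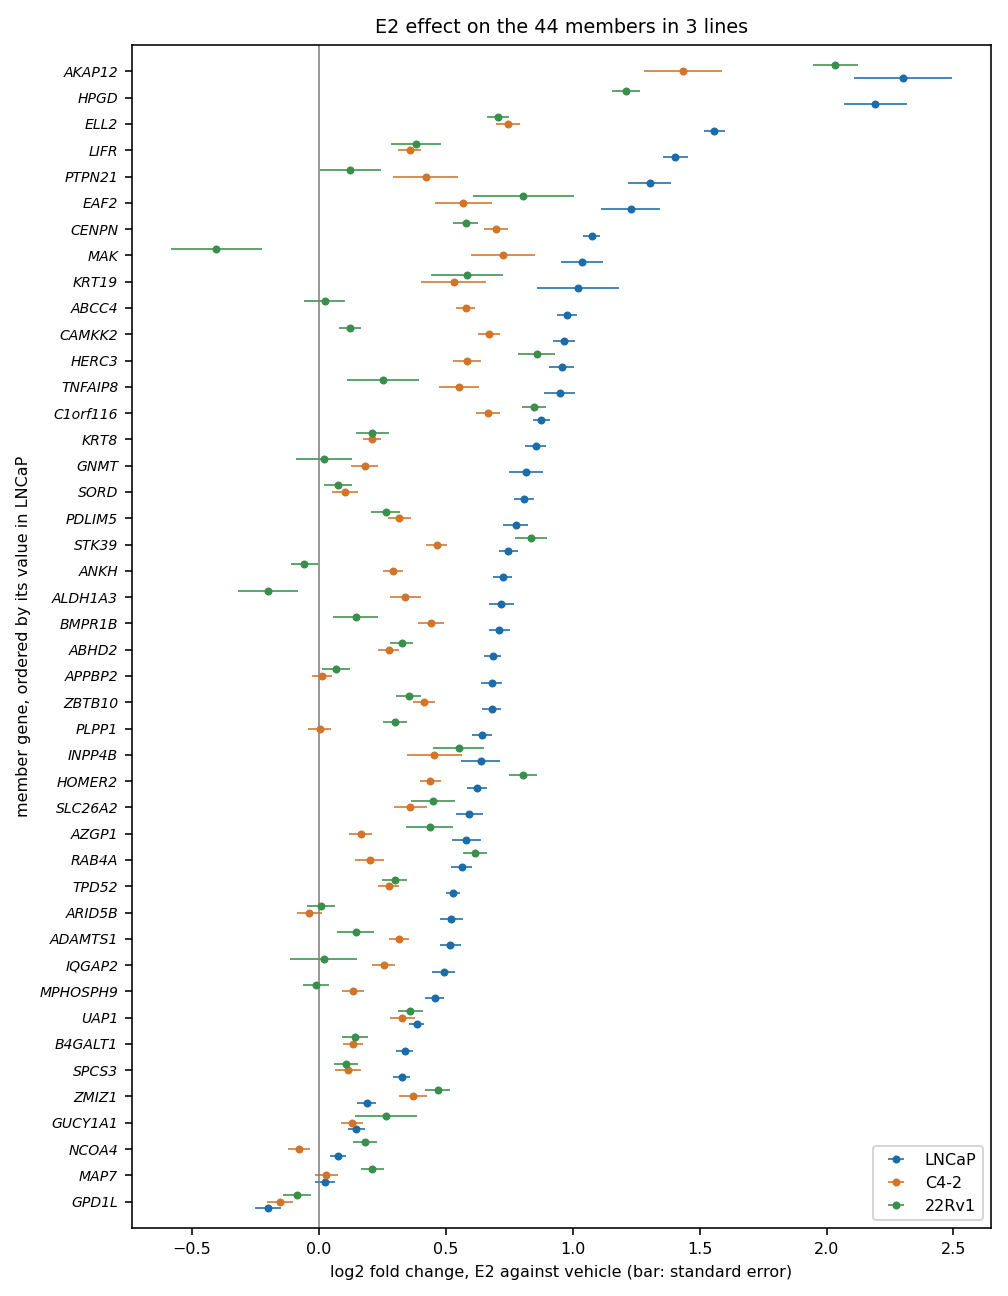
E2 change against vehicle (log2, bars are standard errors) of the members in LNCaP, C4-2 and 22Rv1, ordered by the value in LNCaP. AKAP12 is highest in each line (2.30, 1.44 and 2.03), PTPN21 and LIFR are far higher in LNCaP than in the other lines, and MAK lies at 1.04 in LNCaP and -0.40 in 22Rv1.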

How the data were processed

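Total RNA of 54 libraries was sequenced after TRIzol extraction and a stranded total RNA kit, per the labels' protocols. Per the submitters' processing notes, reads went through FastQC, Trimmomatic, featureCounts and edgeR on hg38; Rsubread is the aligner in the series' design text. No version is given in the sources used here. The labels call the table CPM, but the deposited values are a score: the authors' log2 CPM with 0.5 reads added, multiplied in each library so that the column sums to 1000000, which leaves 24.3 to 30.1% of values below 0. The unit was read from the values themselves: whole reads were recovered for 100% of them (largest distance 0.000163, tolerance 0.01). edgeR and DESeq2 were not run here, since the deposited unit is not counts; voom on the recovered reads was an alternative.

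Recovered reads were divided by the effective library size to give CPM, and limma (3.58.1, R 4.3.3) with a trend was run on log2(CPM + 0.5), which understates changes of low genes. A gene was tested in a fit where 3 or more of its libraries reached 1 CPM. The 18 libraries of a line made 1 fit (12 residual degrees of freedom), and differences between lines came from 1 model of the 54 libraries. P-values were two-sided, adjusted by Benjamini-Hochberg over all genes tested, and called at 0.05. Groups came from the titles and, for OSU, from the treatment labels. Same-numbered replicates were not paired: in none of 24 comparisons did every pair correlate above 0.1. Symbols and coordinates are from RefSeq GRCh38.p14 (18917 of 19225 IDs matched). Precision is limited by 3 libraries a group, and whether triplicates came from separate cultures is known only from the word biological. P-values judge a difference against the spread between these libraries, pooled over the groups of a fit and moderated over genes.

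Per-library values were given for the called members whose libraries did not overlap, the 5 with the largest change each way for E2 and Enza against vehicle and the 3 largest elsewhere; other members were given by role, and per-library values of members outside that rule were chosen after their values were seen. The members, the role groups, the other androgen list and the 4 libraries left out together were chosen with earlier results of these data known. The alternatives were 0.1 or 2 CPM added, no filter, TMM, total reads, cyclic loess, voom, a replicate block, other samples in the fit, without the 4 libraries, and without each library in turn. The code was tested on simulated data. Some genes of the marker and androgen response lists are not reported here.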

Additional observations from a re-analysis of the deposited data

Results flagged for a closer look

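Differences between lines in the response to an agent were tested in the fit of all 54 libraries, with limma's adjusted p. The E2 change differed between lines for 38 of 44 members by the F test, against 29.1% of all genes. The members with the widest differences are given at the pair of lines where each differed most, as the log2 change in the first line minus that in the second. They included HPGD in C4-2 against LNCaP at -2.03, and LIFR in the same lines at -1.05 (adjusted p = 1.11e-10). HPGD was below the filter in C4-2 itself and entered this fit only through the other lines. Between 22Rv1 and LNCaP the widest differences included MAK at -1.44 (adjusted p = 1.67e-07), PTPN21 at -1.18 (adjusted p = 6.33e-08), ABCC4 at -0.96 (adjusted p = 1.10e-13) and ALDH1A3 at -0.92 (adjusted p = 1.97e-10). MAK, ABCC4 and ALDH1A3 rose with E2 in LNCaP and were not called in 22Rv1, where MAK and ALDH1A3 lay under 3.4 CPM in the vehicle, E2 and Enza libraries.

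The Enza change differed between lines for 28 of 44 members by the F test, against 13.3% of all genes. C1orf116 differed by 1.53 (adjusted p = 7.47e-25) and CAMKK2 by 0.70 (adjusted p = 8.75e-12) in 22Rv1 against C4-2. In 22Rv1 against LNCaP HERC3 differed by 1.19 (adjusted p = 2.93e-14), IQGAP2 by 1.07 (adjusted p = 2.32e-11) and STK39 by 0.82 (adjusted p = 1.01e-12). IQGAP2 lay between 1.90 and 3.34 CPM in 22Rv1, where its Enza change was 0.34 and not called. HPGD, in this fit only through the other lines, differed by 1.00 in C4-2 against LNCaP. In C4-2 the highest HPGD level was 0.633 CPM, in vehicle library 1. At such levels the 0.5 CPM added to each value compresses any change, and its part in both HPGD differences was not tested.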

How the results depend on the processing

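Over 33 counts of members called, 28 stayed within 1.5 times of the value given under each alternative run. For E2+Enza against vehicle in C4-2, 0 members became 1 with 2 CPM added, 2 with TMM, 3 with total reads, 5 with cyclic loess, 1 with the replicate block and 1 in the fit of all 54 libraries. Leaving out a library gave 0 to 1 (1 without E2+Enza replicate 2). For Enza against vehicle in 22Rv1, 4 became 7 with total reads, 7 with cyclic loess, 7 in the fit of all 54 and 1 without the 4 libraries that stood apart; leaving out a library gave 1 to 5. For the interaction in 22Rv1, 1 became 0 with no filter, 0 with TMM, 0 with total reads, 7 in the fit of all 54 and 4 without the 4 libraries; leaving out a library gave 0 to 7 (3 without E2 replicate 3, 6 without E2+Enza replicate 3, 7 without Enza replicate 3). For OSU+Enza against Enza, 0 became 1 with the replicate block in LNCaP and 2 in the fit of all 54 in 22Rv1, where leaving out a library gave 0 to 1 (1 without Enza replicate 3). The causes were not tested. The replicate block left E2 against vehicle at 42, 30 and 26 members called in LNCaP, C4-2 and 22Rv1.

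None of 1109 alternative values of 71 named member values turned direction, and 27 lost their call, in 7 values. INPP4B, ZBTB10 and ELL2 with Enza in 22Rv1 lost it under 6, 6 and 4 settings (adjusted p up to 0.138), and ADAMTS1 in E2+Enza against vehicle in 22Rv1 under 7 (0.0581 to 0.153). AKAP12 (0.105) and HPGD (0.398) in E2+Enza against E2 in 22Rv1 lost it in the fit of all 54. GPD1L in OSU against E2 in C4-2 lost it without E2 replicate 3 and without the 4 libraries (0.123 to 0.140). Counts over all genes moved more: E2 in C4-2 went from 817 to 396 and Enza in C4-2 from 1184 to 751 without the 4 libraries. Levels under or near 1 CPM, as for HPGD in C4-2 and EAF2 in 22Rv1, limit what can be resolved.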
